A study of Saccharomyces cerevisiae with 2 samples.

Results

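The cytosolic ribosomal protein genes of Saccharomyces cerevisiae were taken from an RNA-seq comparison of a Chinese rice wine strain with a laboratory strain. Genes were chosen by name alone, as RPL or RPS followed by a number and an optional A or B, or as the stalk genes RPP0, RPP1 and RPP2 with an optional A or B. The pattern found 138 of the 6716 genes in the tables. Among them, RPP1 (YHR062C), encodes a subunit of the RNA processing enzymes RNase MRP and nuclear RNase P and not a ribosomal protein. It was set apart, with 14.8 FPKM in BY4741 and 32.4 FPKM in the rice wine strain. The other 137 genes encode 78 ribosomal proteins, with 81 genes for the large (60S) subunit and 56 for the small (40S) subunit. For 59 proteins there is a pair of genes, A and B, and 19 proteins come from a single gene.

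The rice wine strain, named YHJ7 in the study and YHJ8 in the sample labels, is labelled wild type. It is a haploid obtained by sporulation of an isolate from Huangjiu fermentation. BY4741 is a MATa laboratory strain of the S288c background, and its label lists the alleles his△1, leu2△0, lys2△0 and ura3△0. Both were grown in 25 mL of a medium of yeast extract, peptone and glucose from a starting OD600 of 0.05, and poly(A) RNA was taken in early stationary phase. Each strain has 1 library, made from a pool of 2 biological replicates, so strain, culture and library cannot be told apart and no difference has a replicate check. The libraries were assigned to strains by the column headings of the tables, because each table is attached to the sample of the other strain. In the library headed as BY4741, LEU2, URA3 and MET17 had 0 fragments. LYS2 had 1348 fragments there, which goes against the labelled lys2 deletion, and HIS3 had 548.

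A ribosome is built from a fixed set of ribosomal proteins, most of them present once in each particle, together with the ribosomal RNAs. Budding yeast kept many of these genes as pairs after an ancient duplication of its genome, and the copies often encode the same or nearly the same protein. Transcription of ribosomal protein genes is known to depend on Rap1, Fhl1, Ifh1 and Sfp1, is stimulated by TOR and protein kinase A signalling when nutrients are plentiful, and is shut down as a culture leaves exponential growth.

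All 137 ribosomal protein genes had a higher deposited FPKM (fragments normalised to transcript length and multiplied by a factor for each library) in YHJ7 than in BY4741. Over all 6716 genes, 49.6% were higher in YHJ7. The median level was 621.7 FPKM in BY4741 and 1341 FPKM in YHJ7. The difference between the libraries is given as log2(FPKM + 1) in YHJ7 minus that in BY4741, and the added 1 makes it too small for low genes. Its median over the 137 genes was 1.02, or 2.02-fold, with quartiles of 0.78 and 1.29, while the median over all genes was 0. That 0 and the 49.6% depend on the factors that scaled the libraries, so they are not a background independent of the scaling. Among the 1903 genes whose FPKM averaged 100 or more, the median was 0.21.

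A gene was counted as called where it differed by at least 2-fold. Of the 137 genes, 71 (51.8%) were called higher in YHJ7, against 12.4% of all genes and 19.6% of the genes whose FPKM averaged 100 or more. None was called lower, against 9.84% of all genes. With the 2 libraries brought to equal total FPKM, the median over all genes moved to -0.19 and the median of the ribosomal protein genes to 0.80. On that scale 39 ribosomal protein genes were at least 2-fold higher and RPS16A was the exception that fell below 0, at -0.067, while over all genes the calls became 603 higher and 869 lower in place of 836 and 661. The factor for each library also left the estimated counts of all genes summing to 0.33 more in YHJ7 on the log2 scale. At equal total counts the differences would be smaller, and RPS16A at 0.15 and RPL41A at 0.31 would lie below 0. Calls on that scale were not made. Each ribosomal protein gene had at least 103 fragments in both libraries. The counting error of a log2 ratio had a median SE of 0.04 and a highest value of 0.17, and it covers counting alone.

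**Figure D1:**
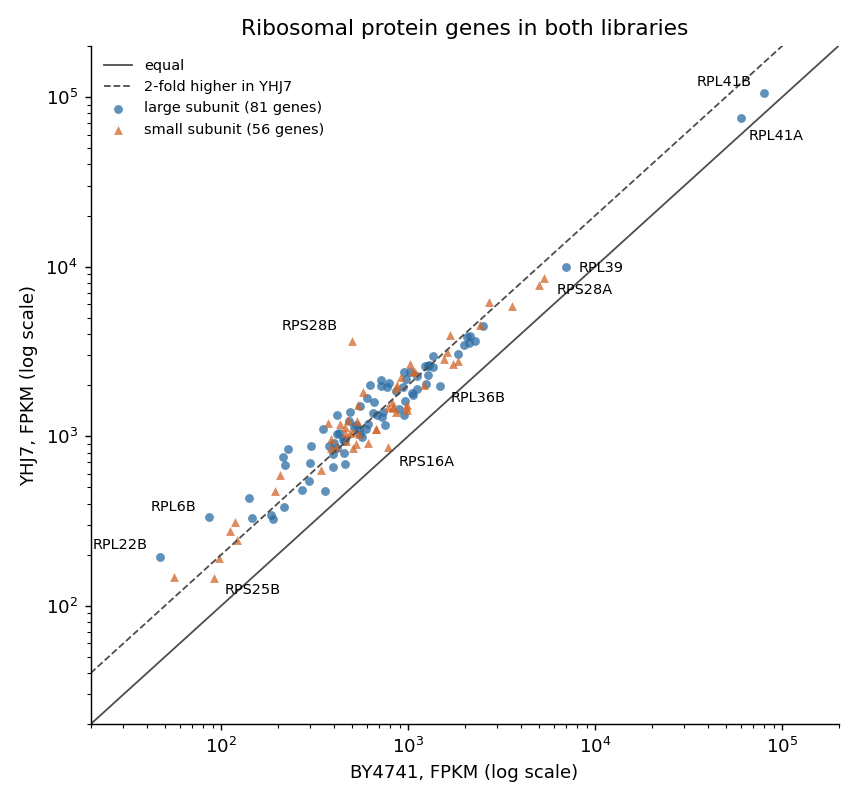
FPKM of each ribosomal protein gene in BY4741 (horizontal axis) and YHJ7 (vertical axis), both on a log scale, with circles for 81 large subunit genes and triangles for 56 small subunit genes. All points lie above the solid line of equal level, 71 of them reach the dashed line of a 2-fold higher level in YHJ7, and RPS28B lies farthest above it.

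**Figure D2:**
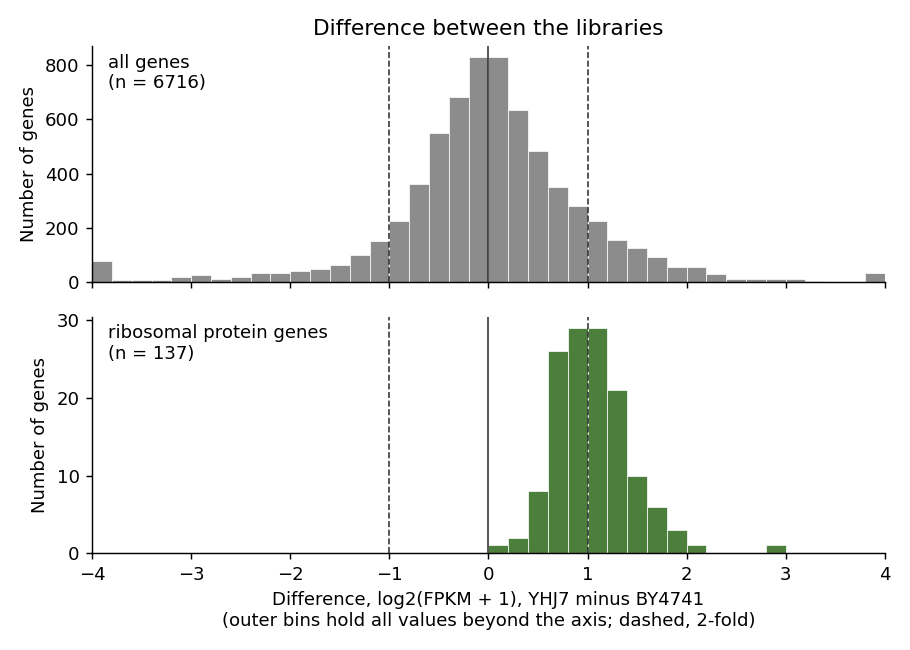
Number of genes by difference between the libraries, in log2(FPKM + 1) of YHJ7 minus BY4741, for all 6716 genes (upper) and the 137 ribosomal protein genes (lower). All genes centre on 0, and the ribosomal protein genes centre on 1.02 with no value below 0.15.

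The ribosomal protein genes took 3.55% of the estimated counts in BY4741 and 5.89% in YHJ7, a 1.66-fold difference. Large subunit genes accounted for 2.10% and 3.57%, and small subunit genes for 1.45% and 2.31%. In summed FPKM the shares were 12.9% and 17.7%. RPL41A and RPL41B made up 53.7% of the ribosomal protein FPKM in BY4741 and 43.3% in YHJ7, but no more than 0.579% and 0.355% of the estimated counts of these genes. Their coding sequence of 78 bases, for a protein of 25 residues, is 6.70% as long as that of RPL3, yet 1 FPKM stood for 0.12% as many counts as it did for RPL3. Without the RPL41 genes, the FPKM shares were 5.99% in BY4741 and 10.04% in YHJ7. FPKM levels of very short genes therefore could not be set against those of longer genes here.

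The large and the small subunit did not stand apart. Large subunit genes had a median difference of 1.02, with 43 of 81 (53.1%) called higher. Small subunit genes had a median difference of 1.00, with 28 of 56 (50%) called higher. Both shares lie above the 12.4% of all genes. The range was 0.31 to 2.02 in the large subunit and 0.15 to 2.87 in the small subunit. With 1 library per strain, the 0.02 between the medians has no test.

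At the top of the range were 1 small subunit and 4 large subunit genes. RPS28B (YLR264W), which encodes the small subunit protein eS28, had 499.8 FPKM in BY4741 and 3650 FPKM in YHJ7. It was 7.30-fold higher in YHJ7, a difference of 2.87 with a counting SE of 0.11 from 208 and 966 fragments. Its product is known to bind the 3′ end of its own mRNA and, with Edc3, to set off decapping of that mRNA. RPL22B (YFL034C-A), for the large subunit protein eL22, had 47.3 FPKM in BY4741 and 195.0 FPKM in YHJ7. The difference of 2.02 rested on 103 and 270 fragments and had a counting SE of 0.17, the largest of the 137 genes. RPL22 protein is known to hold back splicing of the RPL22B transcript. These 2 genes were the members that passed 4-fold, against 2.74% of all genes.

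The next 3 genes, all of the large subunit, were the lower-expressed copies of their pairs in BY4741. RPL6B (eL6) had 86.1 and 335.2 FPKM in BY4741 and YHJ7, a difference of 1.95. RPL12A, for the protein uL11 at the base of the stalk, had 227.1 and 834.5 FPKM, a difference of 1.87. RPL8A (eL8) had 214.5 and 757.0 FPKM, a difference of 1.81. Each was therefore at least 3.53-fold higher in YHJ7.

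The smallest differences belonged to RPS16A, both RPL41 genes, RPL7A and RPL36B. RPS16A (YMR143W), for the small subunit protein uS9, had 774.7 FPKM in BY4741 and 857.6 FPKM in YHJ7, a difference of 0.15 with a counting SE of 0.05. RPL41A had 60330 and 74922 FPKM, and RPL41B had 80205 and 104912 FPKM, differences of 0.31 and 0.39. RPL7A, for uL30, had 359.1 and 478.1 FPKM, a difference of 0.41. RPL36B (eL36) had 1478 and 1983 FPKM, a difference of 0.42. The same 5 genes thus stayed at or below 1.34-fold.

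By FPKM in the per-library tables, the RPL41 genes were followed by RPL39, RPS28A and RPS30A, all with short coding sequences of 156 to 204 bases, so this order rests on the length correction. RPL39 (eL39, lining the exit tunnel) had 6953 FPKM in BY4741 and 9959 FPKM in YHJ7, a difference of 0.52, but 702.1 and 1088 FPKM in the separately estimated table of both libraries. RPS28A had 5320 and 8618 FPKM, a difference of 0.70. RPS30A (eS30) had 5035 and 7767 FPKM, a difference of 0.63. All 3 lay below the median of the 137 genes. At the other end of the per-library tables were RPS9A with 55.7 and 146.7 FPKM, RPS25B with 91.2 and 145.8 FPKM, RPL22B, RPS29A with 97.8 and 191.7 FPKM, and RPS22B with 121.9 and 243.2 FPKM. In the table of both libraries RPS29A had 1924 and 3452 FPKM, RPS25B had 334.6 and 514.4 FPKM, and RPS22B had 425.1 and 704.8 FPKM. Their place among the lowest did not hold there. RPL43A, with 0 and 1.59 FPKM, and RPL22A, with 33.1 and 63.0 FPKM, lay below them. Across the 137 genes the difference had a Pearson r of -0.32 and a Spearman rho of -0.28 with the log2 mean FPKM, and an r of 0.27 and a rho of 0.33 with coding length. The genes share both libraries, and FPKM itself depends on length, so these are descriptions.

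The P-stalk, which contacts elongation factors on the large subunit, consists of the anchor RPP0 and the acidic proteins P1 and P2. RPP0 had 447.2 FPKM in BY4741 and 957.1 FPKM in YHJ7, a difference of 1.10. For P1, RPP1A had 1996 and 3444 FPKM, a difference of 0.79, and RPP1B had 1109 and 2276 FPKM, a difference of 1.04. For P2, RPP2A had 1061 and 1740 FPKM, a difference of 0.71, and RPP2B had 2268 and 3622 FPKM, a difference of 0.68. The median of the 5 stalk genes was 0.79, below the 1.03 of the other 76 large subunit genes, and 2 of the 5 were called higher, against 53.9% of those 76 and 12.4% of all genes.

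In 3 genes the ribosomal protein is made as a fusion with ubiquitin, the small protein attached to others as a tag, and supplies part of the cell's ubiquitin. RPS31 (eS31) had 2418 FPKM in BY4741 and 4535 FPKM in YHJ7, a difference of 0.91. RPL40A had 1853 and 3031 FPKM, a difference of 0.71. RPL40B had 950.2 and 1328 FPKM, a difference of 0.48. All 3 were higher in YHJ7 and none reached 2-fold.

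Gene structure separated the genes little. The 89 genes with an intron in their coding sequence had a median difference of 1.01, and the 48 without one had a median of 1.09. In RPL7A, RPL7B and RPS22B an intron holds a small nucleolar RNA. Their differences were 0.41, 0.90 and 0.99, so none was called higher. The 118 genes of pairs had a median of 1.03, and the 19 single genes had a median of 0.95 with a narrower range of 0.52 to 1.32.

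Both copies were higher in YHJ7 in all 59 pairs. In 18 pairs both copies were at least 2-fold higher, in 26 pairs 1 copy was, and in 15 pairs neither was. The change of 1 copy said little about that of the other, with a Pearson r of 0.10 between the A and B differences across the 59 pairs. Copy A had the larger difference in 28 pairs and copy B in 31. The copy with the lower mean FPKM over both libraries had the larger difference in 31 pairs and the smaller one in 28. The ratio of A to B within a library does not depend on how the libraries are scaled to each other. It shifted between the libraries by a median of 1.24-fold, by at least 1.5-fold in 14 pairs and by at least 2-fold in 3 pairs.

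**Figure D3:**
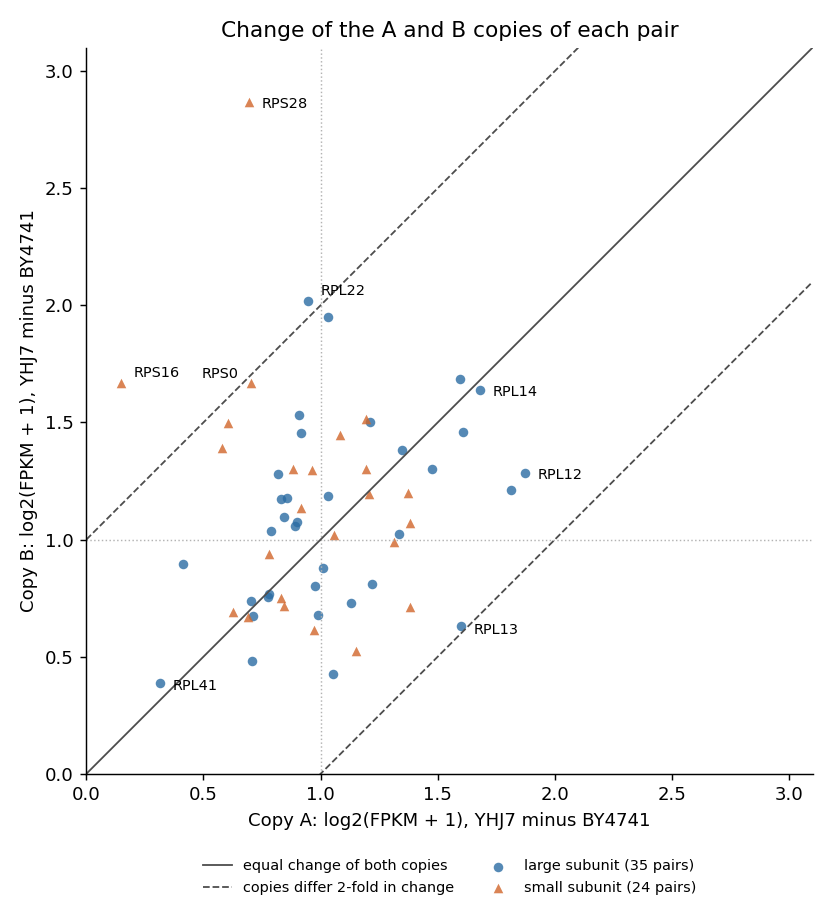
Difference of copy A (horizontal axis) and of copy B (vertical axis) of each pair, in log2(FPKM + 1) of YHJ7 minus BY4741, for 35 large subunit and 24 small subunit pairs. The solid line marks an equal difference of both copies, and RPS28, RPS16 and RPL22 lie outside the dashed lines of a 2-fold shift in the ratio.

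The RPS28 pair had the largest shift in the per-library tables. RPS28A made up 91.4% of the pair's FPKM in BY4741 and 70.2% in YHJ7, a 4.50-fold shift of the A to B ratio or -2.17 on the log2 scale with a counting SE of 0.12. The pair summed to 5820 FPKM in BY4741 and 12268 FPKM in YHJ7, a difference of 1.08, close to the median of the genes. The coding sequences of both copies are printed from RefSeq R64 (sacCer3), the S288c genome, to show how far the reference copies differ. The sequences of the YHJ7 copies may differ from these and were not examined. Capitals mark the 24 of 204 bases at which the copies differ. The longest run shared without a difference is 35 bases. RPS28A lies on the minus strand at chrXV:648804-649007 and RPS28B on the plus strand at chrXII:673131-673334, both with a single exon, and the proteins differ at 1 of 67 residues.
RPS28A: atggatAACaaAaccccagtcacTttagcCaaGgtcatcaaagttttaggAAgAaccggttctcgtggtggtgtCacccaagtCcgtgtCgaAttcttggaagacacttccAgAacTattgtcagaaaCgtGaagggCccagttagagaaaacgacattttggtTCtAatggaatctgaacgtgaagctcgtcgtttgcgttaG
RPS28B: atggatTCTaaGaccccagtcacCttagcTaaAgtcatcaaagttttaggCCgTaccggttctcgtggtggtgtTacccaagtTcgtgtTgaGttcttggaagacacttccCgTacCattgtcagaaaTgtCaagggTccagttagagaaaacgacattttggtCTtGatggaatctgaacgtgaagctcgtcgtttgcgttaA

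RPS16 was the pair that turned furthest past equality. RPS16A made up 57.5% of the pair in BY4741 and 32.0% in YHJ7, a shift of -1.52 with a counting SE of 0.06. The levels were 774.7 and 857.6 FPKM for RPS16A and 573.4 and 1826 FPKM for RPS16B, and their sum differed by 0.99. The copies encode the same protein from coding sequences with 28 differences. RPL22 was the third pair past 2-fold, a call that was lost with a pseudocount of 5, at which 2 pairs passed. RPL22A had 612.2 FPKM in BY4741 and 1180 FPKM in YHJ7, and its share of the pair went from 92.8% to 85.8%, a shift of -1.07 with a counting SE of 0.18. In sum, the pair differed by 1.06. The order of the copies did not hold in the table of both libraries. There RPL22B was the higher copy in both strains, with 53.6 FPKM in BY4741 and 219.3 FPKM in YHJ7, against 33.1 and 63.0 FPKM for RPL22A.

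RPL13 and RPS0 came next, just inside 2-fold. RPL13A (eL13) went from 141.5 to 430.8 FPKM and RPL13B from 750.9 to 1162 FPKM, a shift of 0.97 toward the minor copy A. RPS0A (uS2) had 671.6 and 1094 FPKM and RPS0B had 373.4 and 1188 FPKM, a shift of -0.96. RPS0A was thus the major copy in BY4741 with 64.3% and not in YHJ7 with 48.0%. By the per-library values, the major copy differed between the strains in 6 pairs, RPS16, RPS0, RPS18, RPS6, RPS21 and RPL1. Copy A was the higher one in both libraries in 32 pairs and copy B in 21. Of the pairs that turned, RPS18 and RPL1 were near equality in 1 library. RPS18A made up 49.4% of its pair in YHJ7, and RPL1A made up 50.7% in BY4741. Neither pair turned in the table of both libraries, where RPS18A and RPL1B were the higher copies in both strains.

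Some pairs were very unequal in both strains. By the per-library values, the ratio between the copies in BY4741 was highest in RPL22 at 12.7-fold, RPS9 at 11.9-fold, RPS28 at 10.6-fold and RPS25 at 9.37-fold. For RPL22 the order of the copies was the reverse in the table of both libraries. In YHJ7 the same ratios were 6.03, 7.46, 2.36 and 9.51. RPS25 thus kept its ratio, with a shift of 0.02. RPS25A had 863.3 and 1395 FPKM by the per-library values, by which RPS25B was low. In RPS9 the major copy was RPS9B, with 672.4 and 1101 FPKM. Copies differed by at least 2-fold in level in 20 pairs in BY4741 and 24 pairs in YHJ7.

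Reads from near-identical copies can be hard to assign, and the part of this in the ratios was not tested. Coding identity of the copies ran from 69.2% to 99.4%, with a median of 93.2%, and 21 pairs encode identical proteins. Among the 20 pairs of at least 95% identity the A to B ratio shifted by a median of 0.12 on the log2 scale, and among the other 39 by 0.33. The deposited table that holds both libraries was made by a separate estimate. In that table the summed FPKM of a pair was a median of 60.6% of the per-library value in BY4741 for the pairs of at least 95% identity, and 105.2% for the others. For RPL1, whose copies share 99.4% of their coding bases, it was 24.6%. Less similar pairs also departed, with 13.1% for RPL22, 25.4% for RPL33, 309.4% for RPS25, 298.2% for RPS26 and 1657% for RPS29. Levels of these pairs thus differed between the tables at high and at lower identity.

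RPL41A and RPL41B, with the shortest coding sequences, are shown as an example of near-identical copies. RefSeq R64 places both on the minus strand, at chrIV:130407-130484 and chrIV:221724-221801, with no intron, and 1 base differs, in capitals.
RPL41A: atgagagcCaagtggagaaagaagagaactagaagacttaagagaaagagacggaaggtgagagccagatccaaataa
RPL41B: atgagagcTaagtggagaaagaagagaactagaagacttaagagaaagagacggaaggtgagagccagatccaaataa
In the table of both libraries RPL41A was 0.43 lower in YHJ7 on the log2 scale and RPL41B 0.38 higher. RPL7B, at -0.16, and RPL1A, at -1.24, were also lower there. That table gives values by locus, and 19 of the 137 genes share a locus with other genes. RPL7B shares one with OXR1, RPL41B with PPH21 and RDI1, and RPL6A with FPR3 and HMG1. Values of such genes there are not those of the ribosomal protein gene alone. The other 134 genes were higher, and 59 of the 137 (43.1%) were at least 2-fold higher, against 11.3% of all 6608 genes there. RPL43A is among the 59, but its 0 FPKM in BY4741 and 1.59 FPKM in YHJ7 make its difference of 1.37 depend on the added 1. The differences of the 137 genes had a Pearson r of 0.85 between the per-library values and these. RPS28, RPS16 and RPL22 had shifts of -2.10, -1.55 and -1.11 in the A to B ratio in that table. The largest shift there was that of RPL1 at -3.28, and RPS6 at -1.44, RPL6 at -1.21 and RPS9 at 1.08 also passed 2-fold.

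The copies of each protein were also summed. All 78 proteins had a higher summed FPKM in YHJ7, and 38 were at least 2-fold higher. Of all single genes, 49.6% were higher and 12.4% at least 2-fold higher. The median was 1.00 and the SD over proteins was 0.27, against 0.39 over the 137 genes and 0.25 over the 19 genes without a second copy. A sum over copies whose differences are nearly uncorrelated has a narrower spread by construction. Of the 78 sums, 75 lay within 1.5-fold of the median. All 32 small subunit proteins did so, with a range of 0.59 to 1.29. The 46 large subunit proteins ranged from 0.36 to 1.66. In the table of both libraries the 78 sums were also all higher, with a median of 0.91. The lowest value was 0.02 for RPL7, whose copy RPL7B shares a locus with OXR1 there.

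**Figure D4:**
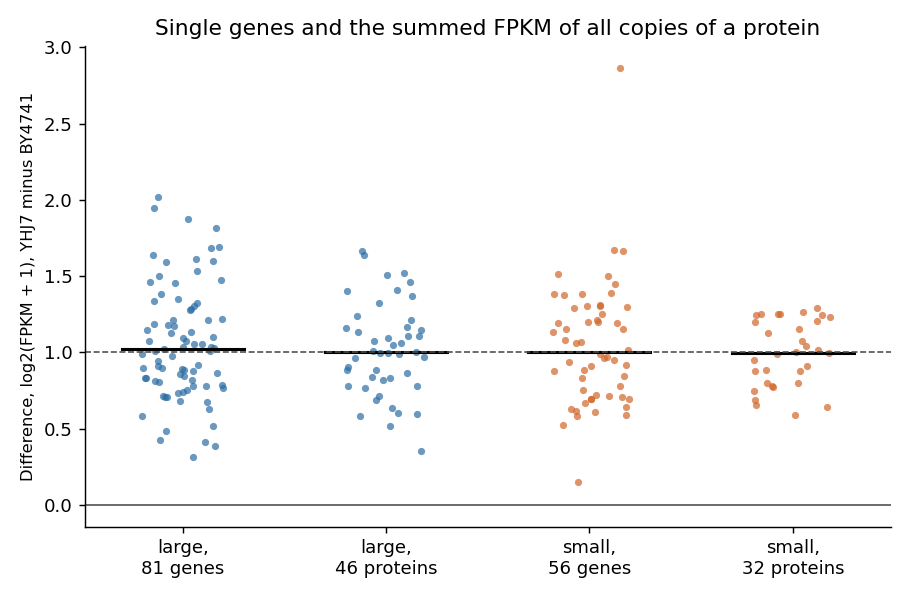
Differences in log2(FPKM + 1) of YHJ7 minus BY4741 for single genes and for the summed FPKM of all copies of each protein, by subunit, with a point for each gene or protein and a bar at the median. The dashed line marks 2-fold, the medians lie between 1.00 and 1.02, and the points of the small subunit span 0.15 to 2.87 over 56 genes and 0.59 to 1.29 over 32 proteins.

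The 5 highest sums were all from the large subunit. RPL14 (eL14) had 769.6 FPKM in BY4741 and 2439 FPKM in YHJ7, a difference of 1.66. RPL4 (uL4), which reaches into the exit tunnel, had 1335 and 4162 FPKM, a difference of 1.64. RPL12 followed at 1.52, RPL9 at 1.51 and RPL8 at 1.46. In RPL14 and RPL4 both copies contributed, with 1.68 and 1.64 for RPL14A and RPL14B and 1.59 and 1.69 for RPL4A and RPL4B. The lowest sums were those of RPL41 at 0.36, RPL39 at 0.52, RPL29 at 0.58 and the small subunit gene RPS20 at 0.59. Single genes for core proteins lay near or above the median, with RPL3 at 1.08, RPS3 at 1.15 and RPL5, whose protein enters the ribosome with the 5S RNA, at 1.32.

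In 10 pairs of neighbouring genes both members are ribosomal protein genes. Their differences lay a median of 0.18 apart, against 0.35 over all 9316 possible pairs of the 137 genes. The 5 divergent pairs, which share the DNA between their start codons, lay a median of 0.07 apart. RPL24A and RPL30 both differed by 0.83. RPS15 and RPP2A differed by 0.64 and 0.71, whereas RPS22A and RPL39 differed by 1.31 and 0.52.

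A divergent block of RPL13 and RPS16 occurs in 2 copies in the genome. On chromosome IV, RPS16B and RPL13A differed by 1.67 and 1.60. On chromosome XIII, RPL13B and RPS16A differed by 0.63 and 0.15, so both genes of the first block exceeded both of the second. The upstream stretch of each block that holds matches to ACCCNNACA, the core of the Rap1 site, was taken from RefSeq R64 on the strand of the RPL13 gene. The stretches are shown because both blocks hold a pair of matches while the genes of 1 block differed more between the strains than those of the other. Capitals mark the matches, which lie on opposite strands, point away from each other and read the same 9 letters in both blocks. The stretches are chrIV:308118-308239, from 306 to 185 bases before the RPL13A start codon, and chrXIII:551505-551654, from 447 to 298 bases before that of RPL13B.
RPL13A: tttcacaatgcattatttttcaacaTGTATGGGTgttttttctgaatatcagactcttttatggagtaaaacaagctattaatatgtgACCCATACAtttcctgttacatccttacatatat
RPL13B: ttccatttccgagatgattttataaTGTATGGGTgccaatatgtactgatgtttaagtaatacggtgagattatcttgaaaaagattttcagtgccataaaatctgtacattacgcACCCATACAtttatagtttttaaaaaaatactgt

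Motifs of 3 kinds were counted on both strands upstream of the start codon. ACCCNNACA occurred within 500 bases in 54 of the 137 ribosomal protein genes (39.4%), against 5.47% of the 6000 genes with such a window. It occurred in 44.4% of large subunit and 32.1% of small subunit genes, and in 3.03% of the mitochondrial ribosomal protein genes. Within 300 bases the shares were 16.1% and 3.12% of all. The PAC motif GCGATGAG, known from genes of ribosome assembly, was found within 500 bases in 1 ribosomal protein gene (0.73%), against 4.83% of all genes and 50% of 30 ribosome biogenesis genes. For the RRPE core GAAAAATTT the shares were 8.76%, 8.18% and 66.7%. Ribosomal protein genes with and without ACCCNNACA had median differences of 1.03 and 0.99. A match is a run of letters and not a measured binding site, and neighbours that share a window count for each gene.

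Other genes of the same process were compared as lists. The 30 ribosome biogenesis genes, which encode factors that process ribosomal RNA and assemble the subunits, had a median difference of 1.52, and 28 of them were called higher, against 12.4% of all genes. NSR1 (nucleolin) had 92.3 FPKM in BY4741 and 627.8 FPKM in YHJ7, a difference of 2.75. The GTPase gene NOG2 had 23.7 and 138.5 FPKM, a difference of 2.50. NOP58 and NOG1 both differed by 2.37, DBP2 by 2.18 and ARX1 by 2.14. RIO1, a kinase gene for late maturation of the small subunit, was the exception at -0.18.

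The 13 genes for dedicated ribosomal protein chaperones and importins were all higher, with a median of 0.67, and 5 were called higher, against 12.4% of all genes. RRB1, the chaperone of Rpl3, had 38.3 FPKM in BY4741 and 176.8 FPKM in YHJ7, a difference of 2.18. SYO1, which carries Rpl5 and Rpl11 into the nucleus, differed by 2.05, and SQT1, the chaperone of Rpl10, by 1.53. PUF6 differed by 1.46 and TSR2, the chaperone of Rps26, by 1.42. The other 8 genes of the list were below 2-fold, among them ACL4, the chaperone of Rpl4, at 0.20.

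Of 18 genes for factors bound to the ribosome, 16 were higher and 5 were called higher, against 49.6% and 12.4% of all genes, and the median was 0.49. YEF3, the fungal elongation factor that ejects the spent tRNA, had 252.3 FPKM in BY4741 and 1870 FPKM in YHJ7, a difference of 2.88. The nascent chain chaperone genes SSB1 and SSB2 differed by 2.21 and 1.78, and TIF6 by 1.67. ASC1, whose protein is a stable part of the small subunit though its name falls outside the pattern, had 587.1 and 1574 FPKM, a difference of 1.42. MBF1 was lower in YHJ7, at -0.91.

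The 66 mitochondrial ribosomal protein genes, which build the separate ribosome of the organelle, had a median difference of 0.23. None was at least 2-fold higher or lower, against 12.4% and 9.84% of all genes. Higher by any amount were 49 of the 66, against 49.6% of all genes, with a range of -0.56 to 0.82. The 10 genes for regulators of ribosomal protein genes had a median of -0.05, with 5 higher, 5 lower and none past 2-fold. IFH1, the coactivator, had 18.8 FPKM in BY4741 and 32.9 FPKM in YHJ7, a difference of 0.78, and MRS6, which binds Sfp1, differed by 0.73. RAP1 differed by 0.25, SFP1 by 0.15, HMO1 by 0.04 and FHL1 by -0.14. The kinase genes TOR2, TOR1 and SCH9 differed by -0.16, -0.29 and -0.66, and CRF1, a corepressor, by -0.39. With the libraries at equal total FPKM, SFP1 and HMO1 turned below 0, to -0.06 and -0.17, and 3 of the 10 regulators stayed higher. On that scale 29 of 30 biogenesis genes and 10 of 13 chaperone and importin genes were higher, with medians of 1.31 and 0.45. So were 14 of 18 ribosome-bound factors and 35 of 66 mitochondrial ribosomal protein genes, with medians of 0.28 and 0.02. The median over all genes was -0.19 on that scale.

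**Figure D5:**
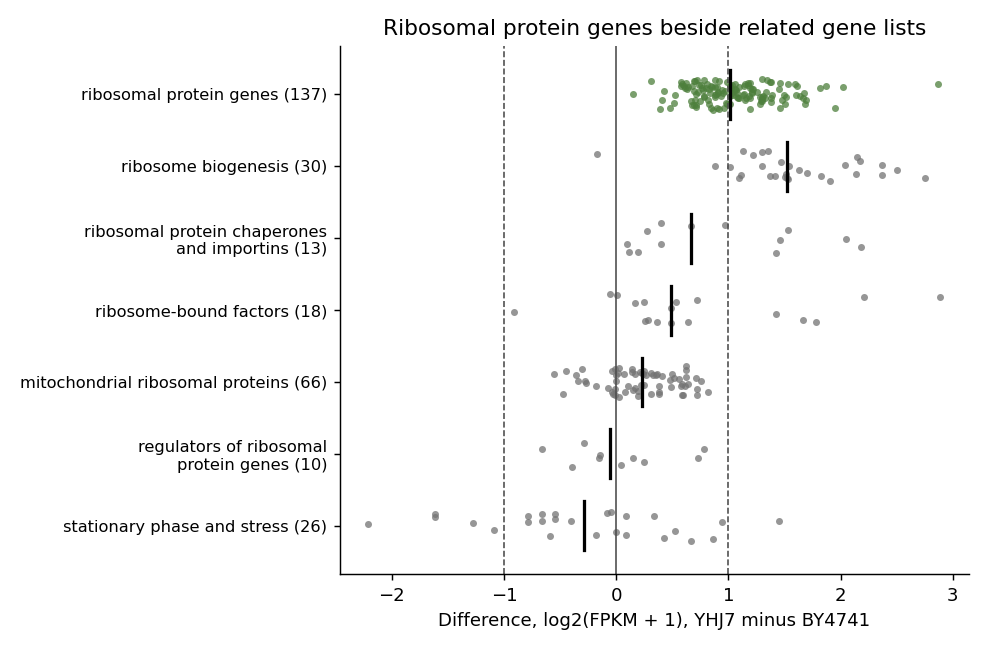
Difference of each gene in log2(FPKM + 1) of YHJ7 minus BY4741 by gene list, with a point for each gene, a bar at the median of each list and dashed lines at 2-fold. Medians run from 1.52 for ribosome biogenesis and 1.02 for ribosomal proteins to 0.23 for mitochondrial ribosomal proteins and -0.29 for stationary phase and stress genes.

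Genes of stationary phase and stress were listed as markers of growth arrest. Of 26 such genes, 17 were lower in YHJ7, with a median of -0.29, 5 were at least 2-fold lower and 1 was at least 2-fold higher, against 9.84% and 12.4% of all genes. At equal total FPKM the median was -0.50 and 7 were higher. XBP1, a repressor gene induced by stress, had 210.4 FPKM in BY4741 and 44.7 FPKM in YHJ7, a difference of -2.21. SSA4 (heat shock protein), CTT1 (catalase), SIP18 and PNC1 differed by -1.62, -1.62, -1.28 and -1.09, and MSN4 by 1.45. YGP1 and SPG5 differed by 0.95 and 0.86. HSP12, a small heat shock gene, stood at 49758 and 49720 FPKM. Whether the cultures were at the same point of growth arrest when RNA was taken was not tested, and the strain and the state of its culture cannot be told apart.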

How the data were processed

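Poly(A) RNA of YHJ7 and BY4741 was sequenced as 1 library per strain, with 2 biological replicates pooled in each. Reads were mapped by the authors to the S288c genome (sacCer3) with TopHat2 2.0.4 and quantified with Cufflinks 2.0.2. The authors deposited estimated counts and FPKM per gene for each library, both carrying the same factor for the library. A further deposited table holds FPKM of both libraries by locus, used here as an alternative, and the authors' fold changes, test statistics and p-values and q-values, which were not used.

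Libraries were assigned by column heading. The row that names no gene (0.806% and 0.309% of the counts) was left out. One fragment was worth 0.797 deposited counts in BY4741 and 1.25 in YHJ7. At this worth, 58.9% and 62.5% of the values under 200 were whole within 0.02, and the remainder were fractions, so a count model was not used. The libraries held about 10218100 and 8167350 fragments, and counting SEs come from these. Differences are log2(FPKM + 1), and calls are at 2-fold, with no test because each strain has 1 library. The code was run on counts simulated from the BY4741 library with planted 4-fold changes. That run does not cover changes near 2-fold, libraries of unequal depth or the assignment of reads between similar copies. Of 138 names, 138 matched the RefSeq R64 annotation, and coding identity came from pairwise alignments of its coding sequences (Biopython 1.88, with Python 3.11.15, NumPy 2.4.6, pandas 2.3.3 and matplotlib 3.10.9).

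The members and lists were chosen with earlier results of these data known. Genes named are the 5 highest and lowest differences, the 5 highest and lowest levels, the 5 pairs with the largest shift and the 5 most unequal, the stalk and ubiquitin fusion genes, all regulators, and up to 6 genes past 2-fold of each other list. Of the pairs the rule names, 1 is not reported here. Neighbouring genes, the highest and lowest sums, the pairs that turned, RPL3, RPS3, RPL5, RPS20, ACL4, YGP1, SPG5, RIO1, MBF1 and HSP12 were chosen after their values were seen. Alternatives changed the pseudocount (0.1, 5), the scale, the table, the filter (mean FPKM of 10) and the fold.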

Additional observations from a re-analysis of the deposited data

How the results depend on the processing

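No paired analysis was possible because there is a single library per strain. Other pseudocounts, a filter on mean FPKM and estimated counts in place of FPKM kept the counts of genes and pairs within 1.5 times and the medians of the ribosomal protein genes within counting error, though a pseudocount of 5 left 2 of 3 pairs past 2-fold, without RPL22. On the scale of equal total FPKM, 39 genes were at least 2-fold higher, the medians were 0.80 for all ribosomal protein genes, 0.81 for the large and 0.79 for the small subunit, and RPS16A turned to -0.067. In the table of both libraries the medians were 0.90 for all and 0.86 for the small subunit. The ribosomal share of FPKM there was 8.96% in BY4741 and 12.0% in YHJ7. In it 1 gene was at least 2-fold lower, against 534 of all 6608 genes, and 7 pairs shifted by at least 2-fold. RPL41A, RPL7B (in a locus shared with OXR1) and RPL1A turned to -0.43, -0.16 and -1.24. The cause of these was not tested. Shares from estimated counts were 3.55% and 5.89%. At 1.5-fold 127 genes were higher in YHJ7, against 1505 of all 6716 genes, and at 4-fold 2 were, against 184 of all genes. The ratio of 14 pairs shifted by at least 1.5-fold and that of 1 pair by at least 4-fold. Without RPL41A and RPL41B, an alternative chosen after seeing the data, the shares were 5.99% and 10.04%. Of 959 alternative values of single genes, 755 kept within their counting error, 200 moved and 4 reversed. Of 42 alternative medians of the other lists, 33 kept within the typical counting error and 9 moved.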
